A study of Mus musculus with 15 samples.

Results

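The transcripts examined here encode the voltage-gated sodium, calcium and pacemaker channels of the cell membrane and the proteins that release, store and remove calcium inside heart muscle cells. They comprise 47 genes, listed by symbol with no measured value used in the rule, of 47069 genes in the deposited count table, and each of the 47 symbols matched 1 row. RNA came from perfused left ventricle of C57BL/6 mice in 15 libraries, 5 per group. Hearts of the rHCI group were infarcted and, on day 7, injected in the muscle wall with rHCI, a hydrogel of recombinant human collagen type I. The PBS group had the same infarct and an injection of saline on day 7, and tissue of both groups was taken 2 days after the injection. The Sham group had a sham operation and no treatment, and its hearts were taken at a matched age of 10 weeks. Infarct and injection therefore cannot be told apart in a comparison with Sham. The labels do not say which zone of the ventricle was ground, and whole tissue mixes muscle with scar, so that fewer muscle cells and less RNA per muscle cell cannot be told apart.

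In a heartbeat, the sodium channel depolarises the muscle cell and opens the L-type calcium channel, whose small calcium current opens ryanodine receptors of the sarcoplasmic reticulum, the internal calcium store. The calcium released drives contraction. It is pumped back into the store by the SERCA pump, which phospholamban (Pln) and sarcolipin (Sln) inhibit, or leaves the cell through the sodium-calcium exchanger (Slc8a1). Calsequestrin buffers calcium in the store, triadin and junctin anchor it at the release channel, junctophilins hold the store against the cell membrane, and CaM kinase II phosphorylates several of these proteins.

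Library totals lay between 32978702 and 103356830 counts. Levels are counts per 1000000 (CPM) after scaling by trimmed mean of M values (TMM), given as mean ± SD with n = 5 per group, and differences are log2 fold changes with standard errors (SE) from edgeR's quasi-likelihood test. A gene was called at a Benjamini-Hochberg adjusted p under 0.05 over all genes tested. Libraries of the infarcted groups differed from Sham in tissue markers. The summed level of 10 cardiomyocyte genes was 33760 to 48610 CPM in rHCI hearts and 34710 to 44000 CPM in PBS hearts, against 52470 to 59220 CPM in Sham hearts. All 8 fibroblast genes and all 8 macrophage genes rose in both infarcted groups. The summed fibroblast level was 13110 to 21320 CPM in rHCI hearts and 14350 to 21050 CPM in PBS hearts, against 1136 to 1436 CPM in Sham hearts. Of the remaining lists, 6 of 7 lymphocyte genes rose in both infarcted groups, 3 of 7 endothelial genes rose in rHCI hearts and 4 in PBS hearts. Of 7 smooth muscle and pericyte genes 3 rose and 1 fell in rHCI hearts and 3 rose and 2 fell in PBS hearts. Of 8 Schwann cell and neuron genes, 5 were tested for rHCI against Sham, of which 1 rose, and 6 for PBS against Sham, of which 2 rose and 1 fell. Among all genes tested, 34.1% rose and 29.7% fell in rHCI hearts, and 36.5% rose and 34.9% fell in PBS hearts. Beside these shares, the endothelial, smooth muscle and Schwann cell counts say little about those cell types. Beyond a second scaling to the muscle genes, given further on, the part of these markers in the results was not tested. PBS 6 stood apart by skeletal muscle genes, with a summed level over 9 genes of 40.8 CPM, against at most 3.87 CPM in any rHCI heart and at most 3.11 CPM in any Sham heart.

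Most of these genes differed between infarcted and Sham hearts, in both directions. Between PBS and Sham hearts, 15 of the 47 rose and 24 fell by edgeR's test, 39 in all, and 8 were not called. Among all 16207 genes tested, 36.5% rose, 34.9% fell and 71.4% were called in either direction, so that the share of risers among the 47 was close to the background and that of fallers above it. Between rHCI and Sham hearts, 15 rose and 22 fell, beside 34.1% higher, 29.7% lower and 63.9% in all among 16076 genes. Every library of the infarcted group lay above every Sham library for 14 genes in PBS hearts, where the background was 31.5%, and for 10 genes in rHCI hearts, where it was 27.0%. Every infarcted library lay below every Sham library for 22 genes in PBS hearts (background 27.2%) and 15 genes in rHCI hearts (background 22.4%). The median log2 fold change of the 47 was -0.27 for rHCI against Sham, beside 0.00 over all genes, and -0.18 for PBS against Sham, beside -0.01. All 47 passed the filter on low counts in each comparison. The comparisons share the Sham libraries, so their calls are not independent. In these calls 14 genes rose and 22 fell in both infarcted groups, and 7 were called in neither. Cacna2d1 and Mcu fell and Ryr1 rose only in the PBS comparison, and Orai1 rose only in the rHCI comparison, and these differences between comparisons were not tested.

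**Figure D1:**
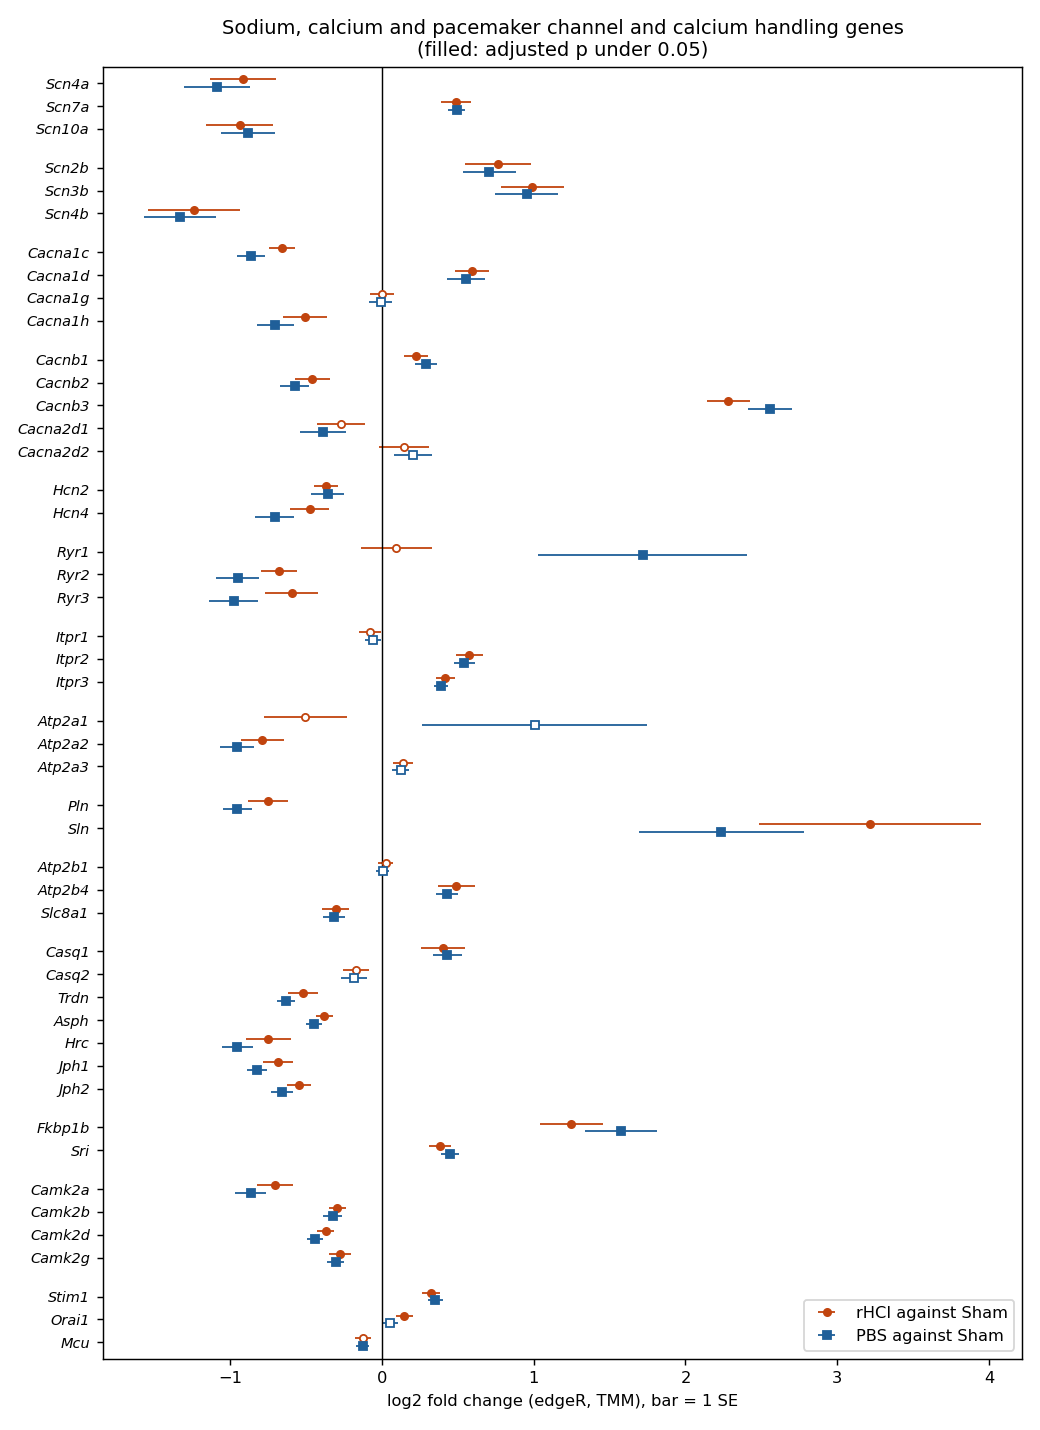
Log2 fold changes of the 47 genes for rHCI against Sham (orange circles) and PBS against Sham (blue squares), by role from sodium channel pores at the top to calcium entry routes at the bottom, with bars of 1 SE and filled symbols at an adjusted p under 0.05. Cacnb3 stands at 2.28 and 2.55 with narrow bars, while Sln at 3.21 and 2.24 and Ryr1 at 0.10 and 1.72 have wide ones.

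Per kilobase of annotated exon, the SERCA pump gene Atp2a2 was the most abundant of the 47 in every group, at 2079 ± 433 CPM per kb in rHCI hearts, 1871 ± 294 CPM per kb in PBS hearts and 3619 ± 84.0 CPM per kb in Sham hearts. Pln followed at 1676 ± 355, 1470 ± 210 and 2839 ± 86.9 CPM per kb in rHCI, PBS and Sham hearts. Levels of Pln and Atp2a2 overlapped between libraries in rHCI hearts and in PBS hearts and did not overlap in Sham hearts. In Sham hearts Hrc at 502 ± 21.8 and Casq2 at 421 ± 47.7 CPM per kb came next. In the infarcted groups that order was turned round, with Casq2 at 371 ± 25.0 and Hrc at 297 ± 77.3 CPM per kb in rHCI hearts and Casq2 at 371 ± 33.7 and Hrc at 260 ± 45.0 CPM per kb in PBS hearts. Jph2, Ryr2 and Trdn followed in all groups. The sodium channel subunits Scn10a, Scn2b and Scn3b and the receptors Ryr1 and Ryr3 were under 0.35 CPM per kb on average in every group, so their values rest on few reads.

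RNA of the pump and of its main inhibitor fell together. Atp2a2, which encodes the SERCA pump of heart muscle (GRCm38 chr5:122453513-122502225, minus strand), had 12154, 9450, 11115, 14423 and 16069 CPM in the rHCI libraries and 10843, 12403, 10907, 9002 and 13746 CPM in the PBS libraries, against 22455, 21493, 21496, 22571 and 22012 CPM in the Sham libraries. No infarcted library reached the lowest Sham library, and the infarcted libraries spread far more widely than the Sham ones. Atp2a2 fell by 0.79 ± 0.14 in rHCI hearts (adjusted p = 4.15e-04) and by 0.95 ± 0.11 in PBS hearts (adjusted p = 4.47e-06) on the log2 scale, by edgeR's test. Pln (chr10:53337667-53345987, plus strand), the inhibitor that phosphorylation relieves, had 3310 to 5912 CPM with a median of 4598 in rHCI hearts and 3322 to 4791 CPM with a median of 4090 in PBS hearts, against 7525 to 8154 CPM with a median of 7872 in Sham hearts. Its log2 fold changes of -0.75 ± 0.13 in rHCI hearts and -0.95 ± 0.095 in PBS hearts stood beside those of the pump. A total of 59.59% of the annotated exon bases of Pln are shared with a gene on the opposite strand, Gm47644, and the strand setting of the counting is not given in the sources used here, so reads of the pair may not have been told apart. The same doubt holds for Atp2a1, which shares 21.94% of its exon bases with Rabep2, for Asph, which shares 14.3% with Clvs1, and for Ryr3, which shares 4.83% with Aven. Rabep2 stood at 10.1 ± 0.68 CPM in rHCI hearts and 11.2 ± 0.72 CPM in PBS hearts, against 7.26 ± 0.20 CPM in Sham hearts, and Aven at 14.3 ± 0.55 CPM in rHCI hearts and 14.5 ± 1.06 CPM in PBS hearts, against 17.4 ± 1.22 CPM in Sham hearts. Both were above the member they overlap. The remaining pump genes were minor: Atp2a3 was at 17.6 ± 1.56 CPM in rHCI hearts and 17.6 ± 1.03 CPM in PBS hearts, against 16.1 ± 0.59 CPM in Sham hearts, and was not called. Without PBS 6 it was called higher in PBS hearts (0.15) and without rHCI 7 in rHCI hearts (0.19).

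Sln, the inhibitor that in mice is typical of atrial muscle, moved the other way. It had 43.4, 10.5, 4.94, 10.8 and 5.81 CPM in the rHCI libraries and 14.9, 7.87, 4.32, 6.22 and 5.70 CPM in the PBS libraries, against 2.80, 0.0204, 0.590, 1.75 and 2.63 CPM in the Sham libraries. Every infarcted library lay above every Sham library, rHCI 1 was far above the rest, and the value of Sham 17 rested on 1 count. The log2 fold change was 3.21 ± 0.73 in rHCI hearts (adjusted p = 2.06e-03) and 2.24 ± 0.54 in PBS hearts (adjusted p = 2.26e-03, edgeR). Without rHCI 1 the rHCI value was 2.32. The atrial myosin light chains Myl7 and Myl4 were highest in the same library and lowest in the same library as Sln. Myl7 was at 144.9 CPM in rHCI 1 and 0.898 CPM in Sham 17, and Myl4 was at 178.8 CPM in rHCI 1 and 3.61 CPM in Sham 17. Of the other atrial genes, Nppa was also highest in rHCI 1 and lowest in Sham 17. Dkk3 was lowest in Sham 17 but highest in rHCI 3, at 141.6 CPM beside 125.5 CPM in rHCI 1. Bmp10 had at most 3 counts in any library. Of 5 atrial genes 4 were tested and all 4 rose in both infarcted groups, beside 34.1% of all genes in rHCI hearts and 36.5% in PBS hearts. Their part in the Sln result was not tested. Even at its highest, Sln had 32.9 CPM per kb, against 1200 CPM per kb for the lowest infarcted library of Pln.

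**Figure D2:**
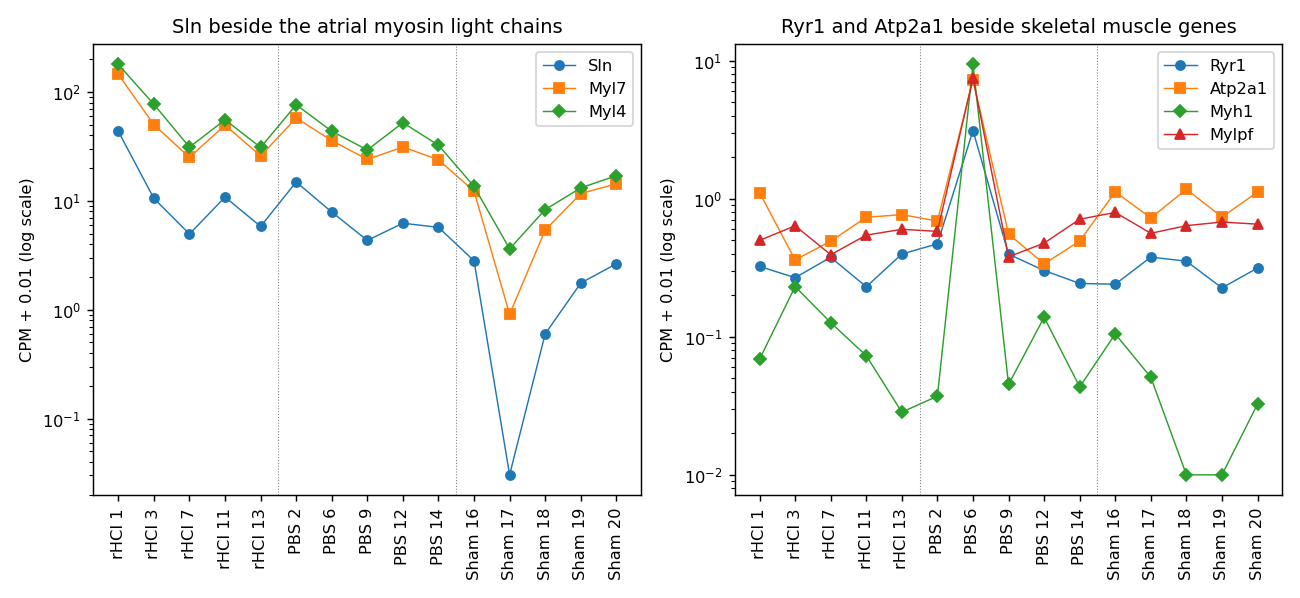
CPM on a log scale (0.01 added) in each of the 15 libraries, for Sln beside Myl7 and Myl4 (left) and for Ryr1 and Atp2a1 beside the skeletal muscle genes Myh1 and Mylpf (right), with lines joining the values of a gene as a guide only. Sln peaks in rHCI 1 and is lowest in Sham 17 along with both light chains, and the 4 genes on the right peak together in PBS 6.

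Among release channels, Ryr2, the ryanodine receptor of heart muscle, fell. It had 1518, 1203, 1113, 1679 and 1601 CPM in the rHCI libraries and 1069, 1154, 1000, 982 and 1756 CPM in the PBS libraries, against 2529, 2063, 2452, 2308 and 2129 CPM in the Sham libraries. All infarcted libraries were below all Sham libraries, and PBS 14 stood well above the other PBS libraries. The log2 fold changes were -0.68 ± 0.12 for rHCI against Sham (adjusted p = 3.14e-04) and -0.95 ± 0.14 for PBS against Sham (adjusted p = 4.76e-05, edgeR). Ryr3, a minor isoform, had 1.58, 1.79, 1.18, 1.76 and 1.97 CPM in the rHCI libraries and 1.60, 1.25, 1.23, 1.12 and 1.28 CPM in the PBS libraries, against 2.80, 1.65, 2.87, 2.41 and 2.80 CPM in the Sham libraries. Sham 17 lay below 3 rHCI libraries and above all PBS libraries, and Ryr3 fell by 0.59 ± 0.17 in rHCI hearts and by 0.98 ± 0.16 in PBS hearts on the log2 scale (adjusted p = 9.76e-03 and 1.12e-04, edgeR). Ryr1, the isoform of skeletal muscle, had 0.220 to 0.387 CPM in rHCI hearts and 0.461, 3.10, 0.387, 0.292 and 0.233 CPM in the PBS libraries, against 0.216 to 0.367 CPM in Sham hearts. Its call in the PBS comparison rested on PBS 6: without that library the log2 fold change was 0.20 with an adjusted p of 0.525, in place of 1.72 ± 0.69 with an adjusted p of 0.038 (edgeR). Leaving out any 1 Sham library also ended the call, at log2 fold changes of 1.63 to 1.80. The SERCA pump of skeletal muscle, Atp2a1, was also highest in PBS 6 at 7.19 CPM, against 0.327 to 0.678 CPM in the other PBS hearts and 0.715 to 1.16 CPM in Sham hearts. Without PBS 6 its log2 fold change was -0.98 (adjusted p = 0.0035, edgeR), in place of 1.01 with no call. For rHCI against Sham it was -0.50 with no call and -0.73, called, without rHCI 1. The skeletal myosin gene Myh1 was at 9.36 CPM in PBS 6 and at most 0.221 CPM in any other library. The part of skeletal muscle RNA in these values was not tested.

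RNA for proteins of the store and its junctions fell with 2 exceptions, the calsequestrins. Hrc, a calcium-binding protein of the store lumen (chr7:45335290-45338974), had 723, 510, 669, 880 and 1026 CPM in the rHCI libraries and 643, 707, 664, 499 and 818 CPM in the PBS libraries, against 1333, 1195, 1293, 1290 and 1331 CPM in the Sham libraries. The groups did not overlap, and Hrc fell by 0.75 ± 0.15 in rHCI hearts and by 0.95 ± 0.10 in PBS hearts on the log2 scale (adjusted p = 7.94e-04 and 2.53e-06, edgeR). Jph1 and Jph2, the junctophilins, fell as well. Jph1 reached 23.0 ± 3.22 CPM in rHCI hearts and 21.1 ± 0.99 CPM in PBS hearts, against 37.2 ± 3.64 CPM in Sham hearts. Jph2 reached 570 ± 60.6 CPM in rHCI hearts and 533.6 ± 56.3 CPM in PBS hearts, against 840.3 ± 52.8 CPM in Sham hearts. Triadin (Trdn) fell by 0.52 ± 0.10 in rHCI hearts and 0.63 ± 0.06 in PBS hearts on the log2 scale. Asph, whose locus also encodes junctin, fell by 0.38 ± 0.05 in rHCI hearts and 0.45 ± 0.05 in PBS hearts, on the log2 scale. Casq2, the calsequestrin of heart muscle (chr3:102086415-102146514), had 1031, 928, 970, 1033 and 1108 CPM in the rHCI libraries and 1020, 1017, 922, 955 and 1162 CPM in the PBS libraries, against 1284, 1158, 1008, 1274 and 1031 CPM in the Sham libraries. Its libraries overlapped between groups, and its log2 fold changes of -0.17 ± 0.09 in rHCI hearts (95% interval -0.36 to 0.01, adjusted p = 0.0964) and -0.18 ± 0.09 in PBS hearts (95% interval -0.37 to 0.00, adjusted p = 0.0726) were not called by edgeR. That call moved with single libraries. Casq2 was called lower without PBS 14, Sham 18 or Sham 20 in the PBS comparison (lowest value -0.23) and without Sham 18 or rHCI 13 in the rHCI comparison (lowest value -0.22). Casq1, the calsequestrin of skeletal muscle, rose to 17.1 ± 4.12 CPM in rHCI hearts and 17.6 ± 2.46 CPM in PBS hearts, against 13.04 ± 1.41 CPM in Sham hearts. Its rHCI call was lost without Sham 20, rHCI 7 or rHCI 11.

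The promoters of Pln, Hrc and Casq2 are shown because the levels of Pln and Hrc fell side by side while Casq2, another store gene of the same muscle, was not called. The sequences are the 250 bases before the transcription start in RefSeq, build GRCm38.p6, all on the plus strand: chr10:53337436-53337685 for Pln, chr7:45335019-45335268 for Hrc and chr3:102086165-102086414 for Casq2. Capitals mark matches, on either strand, to any of 9 motifs searched.
Pln: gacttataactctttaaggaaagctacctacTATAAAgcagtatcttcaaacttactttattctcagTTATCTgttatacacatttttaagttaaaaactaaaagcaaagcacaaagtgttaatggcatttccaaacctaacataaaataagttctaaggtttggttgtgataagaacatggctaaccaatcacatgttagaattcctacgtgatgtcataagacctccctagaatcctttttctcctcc
Hrc: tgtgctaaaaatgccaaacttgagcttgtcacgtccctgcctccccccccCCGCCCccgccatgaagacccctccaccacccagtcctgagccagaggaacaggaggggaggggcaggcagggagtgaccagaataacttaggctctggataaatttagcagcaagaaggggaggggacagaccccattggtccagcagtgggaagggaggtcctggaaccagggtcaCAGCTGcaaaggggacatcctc
Casq2: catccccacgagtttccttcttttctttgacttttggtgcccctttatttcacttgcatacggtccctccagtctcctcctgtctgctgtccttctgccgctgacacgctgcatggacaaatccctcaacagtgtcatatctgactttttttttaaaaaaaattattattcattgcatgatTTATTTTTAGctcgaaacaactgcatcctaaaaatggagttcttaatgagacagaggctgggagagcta
The Pln window holds TATAAA and AGATAA (on the minus strand), the Hrc window GGGCGG (on the minus strand) and CAGCTG, and the Casq2 window a MEF2 motif. No marked matches overlap. Of 32851 windows of this length in RefSeq, 12.37% hold TATAAA, 9.99% AGATAA, 32.74% GGGCGG and 2.92% the MEF2 motif, and 4271 windows hold CAGCTG. The remaining motifs were CATTCC (12.64%), the AP-1 motif TGANTCA with C or G at N (4.46%), the NRSE core TTCAGCACC (0.3%) and the CArG box (1.47%). Among the 35 members with a window, 2 held TATAAA, 4 AGATAA, 6 CATTCC, 8 CAGCTG, 23 GGGCGG, 1 each the MEF2 and AP-1 motifs, and 0 the other two. Members were counted by gene and the shares above by window, so they are not directly comparable. The motifs and the 3 promoters were chosen after values and matches were seen, and a match describes letters in this window and no binding.

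**Figure D3:**
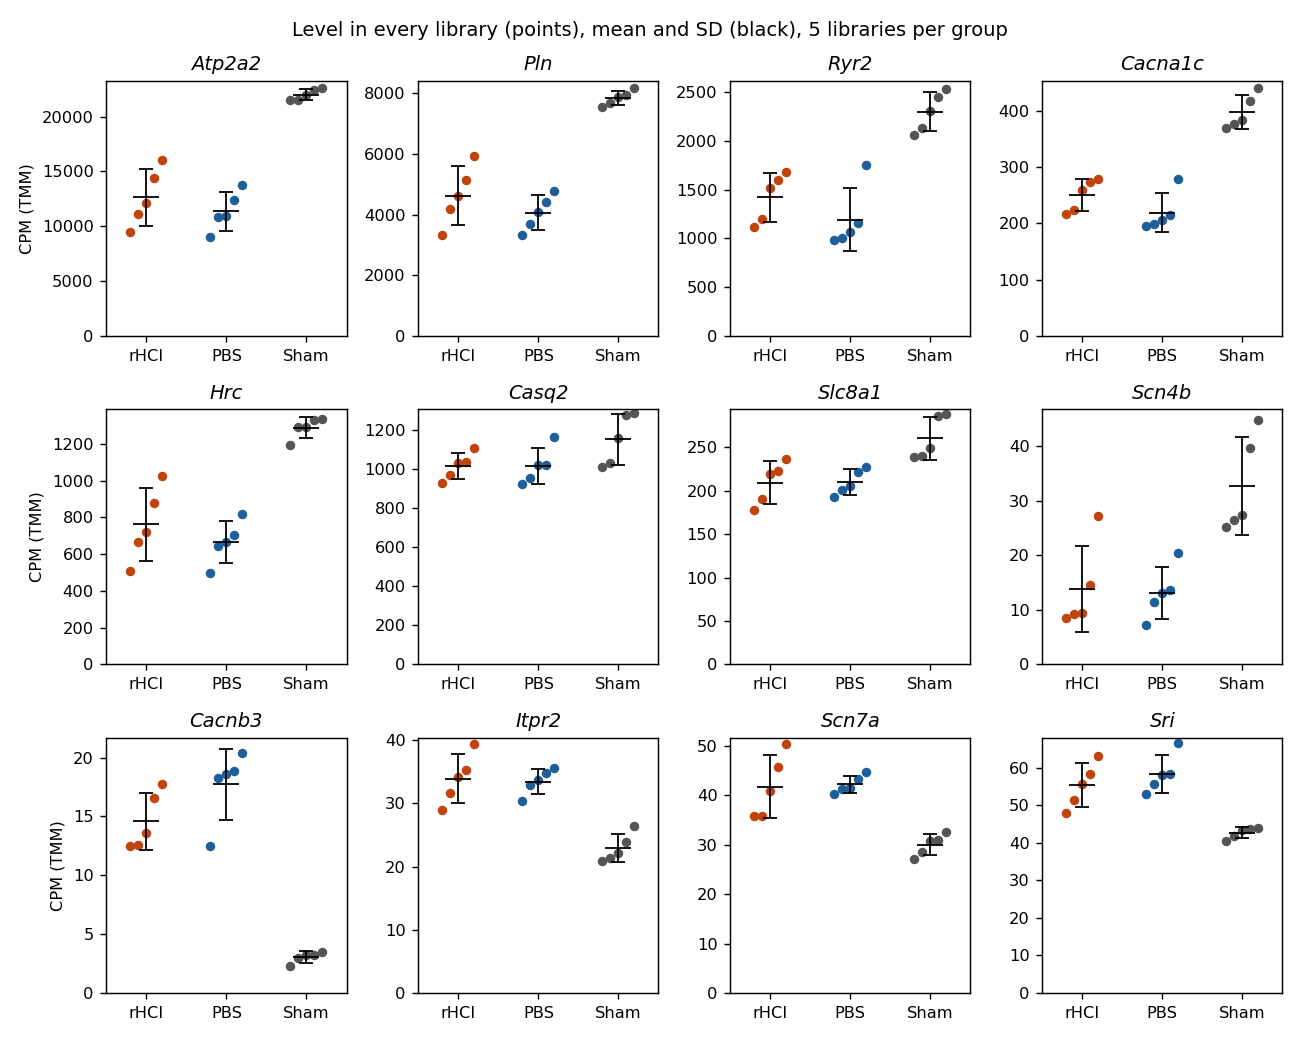
CPM in every library (points) with mean and SD (black) for 12 of the genes, in rHCI, PBS and Sham hearts, with each axis starting at 0. Atp2a2, Pln, Ryr2, Cacna1c and Hrc show Sham libraries above all infarcted ones, Casq2 overlaps, and Cacnb3, Itpr2, Scn7a and Sri show infarcted libraries above all Sham ones.

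Transcripts of both members listed as ryanodine receptor regulators rose. Fkbp1b, a small immunophilin bound to the cardiac receptor, had 1.12, 1.57, 1.25, 1.26 and 0.904 CPM in the rHCI libraries and 1.98, 1.38, 1.63, 1.84 and 0.933 CPM in the PBS libraries, against 0.690, 0.510, 0.381, 0.608 and 0.395 CPM in the Sham libraries. All infarcted libraries were above all Sham libraries, at a low level of 49 to 158 counts per infarcted library. The log2 fold change was 1.25 ± 0.21 in rHCI hearts (adjusted p = 2.30e-04) and 1.58 ± 0.235 in PBS hearts (adjusted p = 4.54e-05, edgeR). Sorcin (Sri) had 55.6, 63.1, 58.5, 51.5 and 48.0 CPM in the rHCI libraries and 58.1, 55.7, 58.5, 66.7 and 53.2 CPM in the PBS libraries, against 44.1, 41.9, 43.5, 43.8 and 40.6 CPM in the Sham libraries. The groups again did not overlap, and Sri rose by 0.38 ± 0.07 in rHCI hearts and 0.45 ± 0.06 in PBS hearts.

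Of the genes for the 3 receptors for inositol trisphosphate, a second route of calcium release, 2 rose. Itpr2 had 29.0 to 39.4 CPM with a median of 34.2 in rHCI hearts and 30.4 to 35.5 CPM with a median of 33.7 in PBS hearts, against 20.8 to 26.4 CPM with a median of 22.1 in Sham hearts. Its log2 fold change was 0.58 ± 0.09 in rHCI hearts and 0.54 ± 0.07 in PBS hearts (adjusted p = 1.28e-04 and 8.57e-06, edgeR). Itpr3 rose by 0.42 ± 0.06 and 0.39 ± 0.05 in the same comparisons, without overlap of libraries. Itpr1, the most abundant of the 3 per kilobase, was at 70.5 ± 6.67 CPM in rHCI hearts and 72.1 ± 2.82 CPM in PBS hearts, against 75.1 ± 5.51 CPM in Sham hearts, and was not called.

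Sodium channel genes moved in both directions, and pores and beta subunits each did. Scn4b, a beta subunit that shapes channel gating, had 9.51, 8.43, 9.17, 14.6 and 27.2 CPM in the rHCI libraries and 13.1, 11.4, 13.6, 7.29 and 20.3 CPM in the PBS libraries, against 39.6, 27.5, 25.1, 26.5 and 44.7 CPM in the Sham libraries. The PBS libraries lay below all Sham libraries, and rHCI 13 lay above 2 of them. Scn4b fell by 1.24 ± 0.30 in rHCI hearts (adjusted p = 3.45e-03) and by 1.33 ± 0.235 in PBS hearts (adjusted p = 1.99e-04, edgeR) on the log2 scale. Scn4a, a pore known from skeletal muscle, had 14.2, 10.6, 12.5, 20.6 and 26.9 CPM in the rHCI libraries and 14.4, 13.9, 15.04, 8.11 and 24.9 CPM in the PBS libraries, against 39.4, 29.7, 26.9, 30.04 and 35.0 CPM in the Sham libraries. It fell by 0.92 ± 0.22 in rHCI hearts, with rHCI 13 just above the lowest Sham library, and by 1.09 ± 0.22 in PBS hearts, without overlap. Scn10a, a pore known from sensory neurons, had 1.96, 0.773, 1.03, 1.73 and 1.59 CPM in the rHCI libraries and 1.63, 1.75, 1.30, 0.945 and 1.82 CPM in the PBS libraries, against 2.53, 3.001, 3.06, 2.18 and 2.87 CPM in the Sham libraries. All infarcted libraries were lower, with log2 fold changes of -0.94 ± 0.22 in rHCI hearts and -0.88 ± 0.175 in PBS hearts. In the opposite direction, Scn7a, a channel-like protein known as a sodium sensor, had 50.4, 45.7, 40.9, 35.8 and 35.8 CPM in the rHCI libraries and 44.8, 40.2, 41.3, 41.5 and 43.2 CPM in the PBS libraries, against 30.7, 30.9, 32.5, 28.5 and 27.1 CPM in the Sham libraries. All infarcted libraries exceeded all Sham libraries, and Scn7a rose by 0.49 ± 0.10 in rHCI hearts and 0.49 ± 0.06 in PBS hearts. Of the other beta subunits, Scn3b had 1.88, 1.82, 1.53, 1.82 and 1.81 CPM in the rHCI libraries and 1.76, 1.73, 1.95, 1.83 and 1.43 CPM in the PBS libraries, against 0.785, 1.12, 0.856, 1.28 and 0.531 CPM in the Sham libraries. It rose without overlap, by 0.99 ± 0.21 in rHCI hearts and 0.95 ± 0.21 in PBS hearts on the log2 scale. Scn2b rose to 0.952 ± 0.28 CPM in rHCI hearts and 0.924 ± 0.17 CPM in PBS hearts, against 0.557 ± 0.09 CPM in Sham hearts.

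Transcripts for subunits of the calcium channels of the cell membrane moved in both directions. Cacna1c, the pore of the ventricular L-type channel, had 273, 216, 223, 278 and 259 CPM in the rHCI libraries and 196, 214, 206, 198 and 279 CPM in the PBS libraries, against 369, 383, 440, 377 and 418 CPM in the Sham libraries. No infarcted library reached a Sham one, and Cacna1c fell by 0.66 ± 0.08 in rHCI hearts (adjusted p = 2.58e-05) and by 0.86 ± 0.09 in PBS hearts (adjusted p = 1.95e-06, edgeR) on the log2 scale. Cacna1d, the L-type pore of pacemaker and atrial cells, had 4.46, 4.59, 4.31, 4.75 and 4.83 CPM in the rHCI libraries and 5.40, 4.24, 3.83, 4.34 and 4.80 CPM in the PBS libraries, against 3.17, 2.96, 3.81, 2.41 and 2.95 CPM in the Sham libraries. It rose, with a small gap between PBS 9 and Sham 18, by 0.60 ± 0.11 in rHCI hearts and 0.56 ± 0.13 in PBS hearts. Of the T-type pores, Cacna1h fell to 16.97 ± 3.75 CPM in rHCI hearts and 15.0 ± 2.45 CPM in PBS hearts, against 24.3 ± 3.87 CPM in Sham hearts. Cacna1g was not called, at 41.1 ± 3.72 CPM in rHCI hearts and 41.2 ± 3.71 CPM in PBS hearts, against 41.4 ± 4.18 CPM in Sham hearts. Cacnb3, a beta subunit that brings the pore to the membrane, had 13.6, 17.7, 16.6, 12.5 and 12.5 CPM in the rHCI libraries and 18.9, 18.6, 18.2, 20.4 and 12.5 CPM in the PBS libraries, against 2.95, 3.51, 3.25, 3.26 and 2.26 CPM in the Sham libraries. The groups were far apart, with log2 fold changes of 2.28 ± 0.14 in rHCI hearts (adjusted p = 8.96e-08) and 2.55 ± 0.15 in PBS hearts (adjusted p = 7.28e-09, edgeR). Cacnb2, the main beta subunit of heart muscle, fell to 58.8 ± 11.4 CPM in rHCI hearts and 54.7 ± 8.99 CPM in PBS hearts, against 81.4 ± 5.97 CPM in Sham hearts. Cacnb1 rose by 0.22 ± 0.08 in rHCI hearts and by 0.29 ± 0.07 in PBS hearts on the log2 scale. The rHCI call of Cacnb1 was lost without Sham 19, Sham 20 or rHCI 7. Of the alpha-2-delta subunits, Cacna2d2 was not called except without Sham 18 in the PBS comparison (0.30). Cacna2d1 was at 245 ± 23.2 CPM in rHCI hearts and 228 ± 23.8 CPM in PBS hearts, against 298 ± 72.4 CPM in Sham hearts. Its Sham values ran from 172 CPM in Sham 17 to between 309 and 349 CPM in the others. The PBS call of Cacna2d1 (log2 fold change -0.39 ± 0.15, adjusted p = 0.0356) was lost on leaving out any of PBS 2, 6, 9 and 12 and Sham 16, 18, 19 and 20. Without Sham 17 the gene was called lower in rHCI hearts too, at -0.42 (adjusted p = 7.40e-04, edgeR).

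Both pacemaker channel genes fell. Hcn4, known as the main pore of the pacemaker current, had 7.59, 7.20, 6.79, 9.73 and 9.41 CPM in the rHCI libraries and 7.59, 6.95, 7.03, 5.27 and 8.30 CPM in the PBS libraries, against 12.02, 13.5, 10.3, 12.3 and 9.13 CPM in the Sham libraries. Sham 20 was below the 2 highest rHCI libraries, and all PBS libraries were below it. The log2 fold change was -0.47 ± 0.13 in rHCI hearts (adjusted p = 5.90e-03) and -0.71 ± 0.13 in PBS hearts (adjusted p = 2.54e-04, edgeR). Hcn2 fell by 0.37 ± 0.08 in rHCI hearts and by 0.36 ± 0.11 in PBS hearts. It was the more abundant of the pair in every group. In Sham hearts it had 12.9 CPM per kb, against 1.87 CPM per kb for Hcn4. Of 5 conduction tissue genes 4 were tested, of which 2 rose and 1 fell in both comparisons, where 63.9% of all genes were called in rHCI hearts and 71.4% in PBS hearts.

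Among routes out of the cell, Slc8a1, the sodium-calcium exchanger, had 237, 190, 178, 223 and 219 CPM in the rHCI libraries and 222, 201, 192, 205 and 228 CPM in the PBS libraries, against 288, 239, 250, 286 and 240 CPM in the Sham libraries. All infarcted libraries were below all Sham libraries by a narrow margin, with log2 fold changes of -0.30 ± 0.09 in rHCI hearts (adjusted p = 9.04e-03) and -0.31 ± 0.07 in PBS hearts (adjusted p = 1.36e-03, edgeR). Of the membrane calcium pumps, Atp2b4 rose by 0.49 ± 0.12 in rHCI hearts and by 0.43 ± 0.07 in PBS hearts. Atp2b1 was not called, at 95.4 ± 2.68 CPM in rHCI hearts and 94.97 ± 2.42 CPM in PBS hearts, against 94.5 ± 5.08 CPM in Sham hearts. All 4 CaM kinase II genes fell in both groups without overlap of libraries, beside 22.4% of all genes in rHCI hearts and 27.2% in PBS hearts. Scaled to the muscle genes, as given further on, only Camk2a of these stayed lower in PBS hearts. Camk2d, known as the main cardiac isoform, had 172, 152, 159, 165 and 168 CPM in the rHCI libraries and 155, 159, 154, 153 and 164 CPM in the PBS libraries, against 221, 232, 204, 206 and 199 CPM in the Sham libraries. Per kilobase it was on average below Camk2g in every group. Sham means were 9.45 CPM per kb for Camk2d, 10.3 for Camk2g and 11.4 for Camk2a. That order rests on exon lengths pooled over all annotated exons, 22493 bases for Camk2d against 6401 for Camk2g and 7465 for Camk2a. In CPM, Camk2d was the highest of the CaM kinase II genes. Its Sham libraries had 199 to 232 CPM, against 60.5 to 71.4 CPM for Camk2g and 73.4 to 93.0 CPM for Camk2a. Camk2d fell by 0.37 ± 0.06 and 0.44 ± 0.05 in rHCI and PBS hearts, and Camk2a fell by 0.71 ± 0.12 and 0.86 ± 0.10. Stim1, the sensor that opens calcium entry when the store empties, rose by 0.32 ± 0.06 in rHCI hearts and 0.35 ± 0.05 in PBS hearts. Orai1, the channel it opens, was called higher only in the rHCI comparison, at 15.1 ± 0.82 CPM in rHCI hearts against 13.8 ± 0.64 CPM in Sham hearts. That call was lost without any of 8 of the 10 libraries left out singly, all but rHCI 1 and Sham 16. Mcu, the pore of the mitochondrial calcium uniporter, was at 23.6 ± 1.49 CPM in rHCI hearts and 23.8 ± 0.38 CPM in PBS hearts, against 25.9 ± 1.10 CPM in Sham hearts. Its PBS call was lost without PBS 6 or PBS 14. In rHCI hearts it was called lower without Sham 18, rHCI 11 or rHCI 13 (-0.155 to -0.145).

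Further genes of the same pathway were described from 2 lists. Of 37 other calcium regulators, 13 rose and 19 fell in PBS hearts and 12 rose and 15 fell in rHCI hearts, with a median log2 fold change of -0.07 in rHCI hearts and -0.12 in PBS hearts. Over all genes tested, 34.1% rose and 29.7% fell in rHCI hearts and 36.5% rose and 34.9% fell in PBS hearts, so the share of risers in this list was near the background. The largest changes among them were in Mcub, an inhibitory paralog of Mcu, at 5.12 ± 0.99 CPM in PBS hearts against 1.25 ± 0.07 CPM in Sham hearts, and in Trpc6, a cation channel. Trpc6 was at 0.614 ± 0.09 CPM in PBS hearts against 0.155 ± 0.06 CPM in Sham hearts. Strit1, a small peptide that relieves inhibition of the SERCA pump, fell to 3.41 ± 0.91 CPM in PBS hearts, against 10.3 ± 1.61 CPM in Sham hearts, a log2 fold change of -1.60 ± 0.17. Bin1, which shapes the transverse tubules, rose to 16.9 ± 1.36 CPM in PBS hearts, against 7.97 ± 0.97 CPM in Sham hearts. Of 7 partners of the sodium channel, 6 fell and 1 rose in both comparisons, beside 29.7% of all genes lower in rHCI hearts and 34.9% lower in PBS hearts. Fgf12 rose to 1.96 ± 0.48 CPM in PBS hearts, against 0.793 ± 0.25 CPM in Sham hearts. Its relative Fgf13 fell to 50.01 ± 6.89 CPM in PBS hearts, against 83.9 ± 7.56 CPM in Sham hearts.

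Ratios of a pair of genes within a library do not depend on how libraries are scaled, and 14 were compared between each pair of groups, 42 tests in all, by two-sided exact permutation tests whose smallest possible p with 5 against 5 libraries is 0.007937. The ratio of Pln to Atp2a2 hardly moved. Its mean log2 value was -1.45 ± 0.05 in rHCI hearts and -1.49 ± 0.06 in PBS hearts, against -1.49 ± 0.05 in Sham hearts, with adjusted p of 0.413 and 0.9 by the exact permutation test. The ratio of Ryr2 to Atp2a2 was -3.15 ± 0.17 in rHCI hearts and -3.28 ± 0.20 in PBS hearts, against -3.27 ± 0.12 in Sham hearts, and did not pass either. Other pairs came apart. The log2 ratio of Cacnb3 to Cacnb2 was -2.01 ± 0.50 in rHCI hearts and -1.63 ± 0.49 in PBS hearts, against -4.75 ± 0.17 in Sham hearts. That of Itpr2 to Ryr2 was -5.38 ± 0.35 in rHCI hearts and -5.12 ± 0.31 in PBS hearts, against -6.65 ± 0.08 in Sham hearts. Slc8a1 rose against Atp2a2 by 0.51 in rHCI hearts and 0.66 in PBS hearts, and Casq2 rose against Ryr2 by 0.53 in rHCI hearts and 0.80 in PBS hearts, on the log2 scale. Scn4b fell against Scn2b by 2.09 in rHCI hearts and by 2.07 in PBS hearts. These 5 ratios passed at an adjusted p of 0.0222 by the exact permutation test, except Scn4b to Scn2b in rHCI hearts at 0.037. In all 10 of the 14 ratios passed for PBS against Sham and 8 for rHCI against Sham. Leaving out 1 library gave between 14 and 18 passing among the 42 tests, in place of 18, not necessarily the same ones. Sln to Atp2a2 for PBS against Sham was lost without PBS 2 (adjusted p = 0.0526, exact permutation test).

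How libraries were scaled moved the balance of rises and falls. Scaling to the library total alone raised the median log2 fold change of all genes by 0.28 for PBS against Sham and 0.22 for rHCI against Sham, with 8938 genes higher and 2610 lower for PBS against Sham in place of 5921 and 5653. There were 8011 higher and 2128 lower for rHCI against Sham in place of 5487 and 4781. By library totals 22 members were higher and 18 lower in PBS hearts, and 17 higher and 15 lower in rHCI hearts. Scaling to the 10 cardiomyocyte genes raised it by 0.56 for PBS against Sham and 0.45 for rHCI against Sham. Then 11644 genes were higher and 778 lower in PBS hearts, and 9886 higher and 610 lower in rHCI hearts. Relative to these muscle genes, 26 of the 47 members were higher and 10 lower in PBS hearts, and 22 higher and 9 lower in rHCI hearts. Scn4a, Scn4b, Ryr2, Atp2a2, Pln, Hrc, Jph1 and Camk2a were lower than Sham under either scaling in both infarcted groups, as were Cacna1c and Ryr3 in PBS hearts and Scn10a in rHCI hearts. In PBS hearts Atp2a2 fell by 0.41 on this scale, Pln by 0.41, Ryr2 by 0.42 and Scn4b by 0.78. The 10 muscle genes did not move alike. After TMM scaling 8 of them were lower and 2 not called in both infarcted groups. Their log2 fold changes in PBS hearts included -0.92 for Tnni3, -0.83 for Myl2, -0.70 for Tnnt2 and -0.66 for Myl3, beside -0.95 for Ryr2. A member lower on the muscle scale thus fell beyond the list as a whole, which does not mean beyond each gene of it. Slc8a1, Camk2b, Camk2g and Mcu turned from lower to higher in PBS hearts, and 10 others, Hcn4, Trdn, Jph2 and Camk2d among them, were no longer called. The 15 members that rose by the first scaling in PBS hearts were higher by this one too, and so were the 15 in rHCI hearts. Because this scaling raised the median by 0.56 in PBS hearts and 0.45 in rHCI hearts, these rises could hardly be lost. Their persistence is therefore no test of them.

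**Figure D4:**
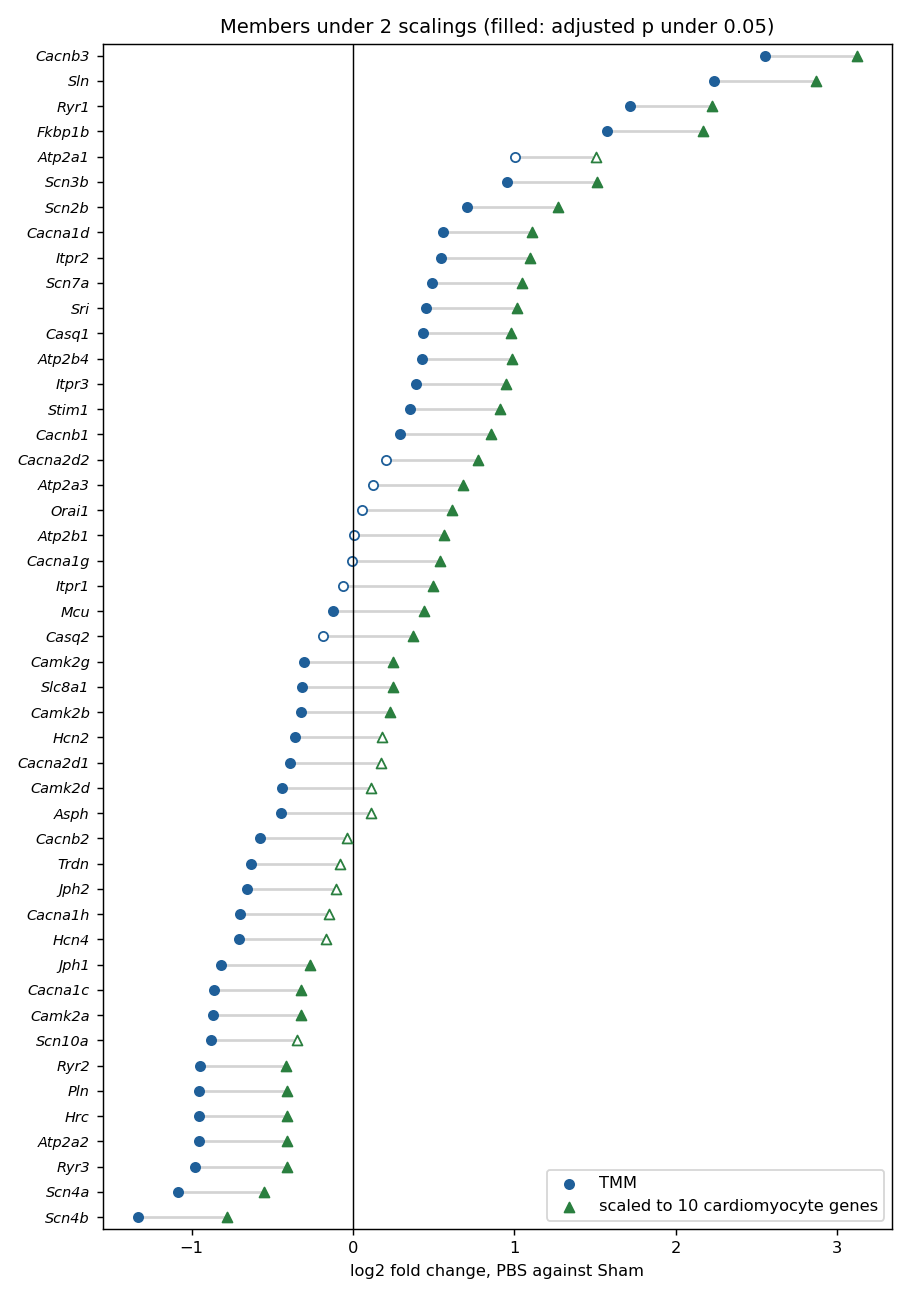
Log2 fold changes of the 47 genes for PBS against Sham after TMM scaling (blue circles) and after scaling to 10 cardiomyocyte genes (green triangles), ordered by the first, with filled symbols at an adjusted p under 0.05. The second scaling moves the genes up by about 0.56, and Scn4b, Scn4a, Ryr3, Atp2a2, Hrc, Pln, Ryr2, Camk2a, Cacna1c and Jph1 stay below 0 with filled symbols.

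Among the 10 infarcted hearts, rHCI and PBS together, the levels of several members followed the amount of muscle RNA. The mean log2 CPM of the 10 cardiomyocyte genes correlated with Atp2a2 at Pearson r = 0.97 and Spearman rho = 0.96 (permutation p = 5e-05 and 4e-05, adjusted over 6 genes 1.5e-04 and 1.8e-04) and with Pln at r = 0.97 and rho = 0.96 (permutation p = 2e-05 and 6e-05, adjusted 1.2e-04 and 1.8e-04). For Ryr2 the values were r = 0.78 and rho = 0.76 (permutation p = 0.00884 and 0.0147, adjusted 0.0133 and 0.022). Scn4b gave r = 0.82 and rho = 0.79 (permutation p = 0.00321 and 0.00853, adjusted 0.00642 and 0.0171), and Hcn4 r = 0.76 and rho = 0.65 (permutation p = 0.0111 and 0.0495, adjusted 0.0133 and 0.0594). Scn7a ran the other way without passing, at r = -0.54 and rho = -0.52 (permutation p = 0.105 and 0.133). Without the 2 hearts farthest from the median muscle level, rHCI 3 and rHCI 13, r was 0.96 for Atp2a2, 0.94 for Pln, 0.89 for Ryr2, 0.81 for Hcn4 and -0.20 for Scn7a. For Scn4b it was 0.64 (permutation p = 0.0861) and no longer passed. Within each group of 5 hearts, given as a description, the Scn4b r was 0.88 in rHCI hearts and 0.82 in PBS hearts, and the Scn7a r was -0.69 in rHCI hearts and 0.08 in PBS hearts, where the negative slope was absent. Within the 8 hearts that share a number in the sample descriptions, read here as a sequencing run although the labels do not name it, r was 0.97 for Atp2a2, 0.98 for Pln, 0.81 for Ryr2, 0.87 for Scn4b, 0.78 for Hcn4 and -0.73 for Scn7a. All these values share the library and its scaling.

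**Figure D5:**
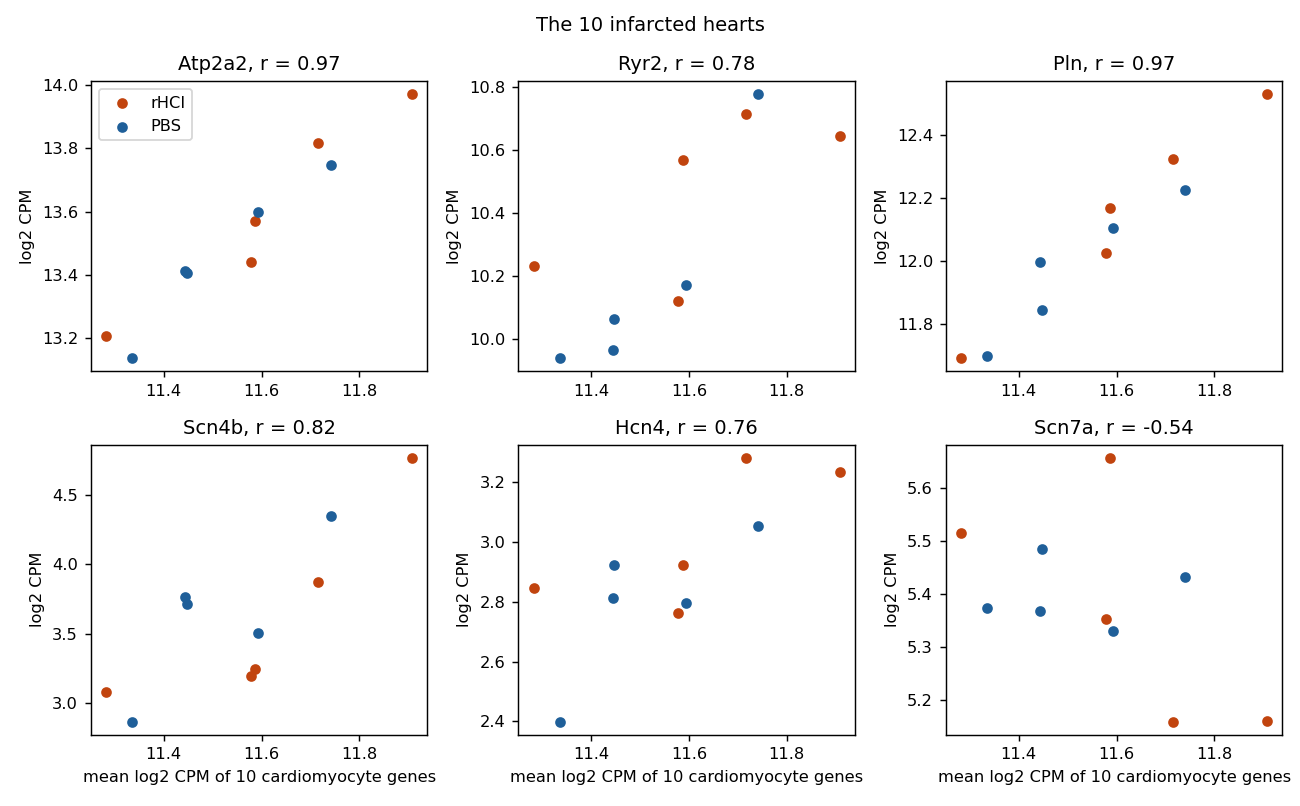
Log2 CPM of 6 genes against the mean log2 CPM of 10 cardiomyocyte genes in the 10 infarcted hearts, rHCI in orange and PBS in blue. Atp2a2 and Pln lie close to a line with r = 0.97, Scn4b and Ryr2 scatter more, and Scn7a slopes down without passing the test.

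Between rHCI and PBS hearts, which addresses the effect of the hydrogel on the infarcted ventricle, no member was called. edgeR called 0 of 16383 genes (0% in each direction), and DESeq2 called 6 genes, none of them a member. At an unadjusted p under 0.05 by edgeR, 1 member was higher and 1 lower, beside 1.12% higher, 2.41% lower and 3.53% in all among the genes tested. No member had rHCI and PBS libraries without overlap, where the background was 0.165% higher and 0.366% lower. The member with the smallest p was Ryr3, whose libraries, given above, averaged 1.66 ± 0.30 CPM in rHCI hearts and 1.30 ± 0.18 CPM in PBS hearts. The groups overlapped, and the log2 fold change was 0.37 (95% interval 0.03 to 0.71, unadjusted p = 0.035, adjusted p = 0.871, edgeR). Ryr1 had a log2 fold change of -1.62 (95% interval -3.20 to -0.04, adjusted p = 0.871, edgeR) that was -0.11 without PBS 6. Cacnb3 was at 14.6 ± 2.42 CPM in rHCI hearts, against 17.7 ± 3.02 CPM in PBS hearts, with a log2 fold change of -0.28 (95% interval -0.59 to 0.03). For Atp2a2 the interval of the log2 fold change ran from -0.20 to 0.51, for Pln from -0.14 to 0.52, for Ryr2 from -0.11 to 0.63 and for Cacna1c from -0.03 to 0.43, so that differences of these sizes were not resolved with 5 hearts per group. Slc8a1, Casq2 and Camk2d had narrower intervals, from -0.18 to 0.18, from -0.16 to 0.17 and from -0.04 to 0.16. Sln, at 0.97 with an interval from -0.29 to 2.24, came to 0.06 without rHCI 1. None of the 14 within-library ratios passed between rHCI and PBS hearts, the smallest adjusted p being 0.175 for Casq2 to Ryr2 by the exact permutation test.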

How the data were processed

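Messenger RNA of left ventricle was sequenced from stranded libraries, as the labels' protocols state. The deposited data are raw counts in 1 table, whole numbers per gene and library, with 0 columns that match no sample. Tools named in the submitters' processing notes, without role or version, are STAR, Trimmomatic, edgeR and Cufflinks, and the builds are mm10 and GRCm38. For the counter, its strand setting and the annotation: not given in the sources used here.

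Groups came from the sample titles. A number in the descriptions, which the labels do not name, was read as the sequencing run: 12 libraries share 1209, PBS 6 has 1211, and rHCI 1 and Sham 19 have 1226. Whether libraries come from separate animals is not stated, and p-values measure the spread between these libraries. The 47 members and all gene lists were chosen with earlier results of these data known.

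Each pair of groups, 10 libraries, was tested across all genes with edgeR 4.0.16 in R 4.3.3: TMM, filterByExpr, glmQLFit, glmQLFTest, two-sided, Benjamini-Hochberg over the genes tested. The scripts were tested on simulated data. Within-library ratios added 0.5 counts to each gene. Correlations used 100000 resamples. Of 47069 gene identifiers 46488 are in GENCODE M21, which gave positions and exon lengths on GRCm38. Values in every library are given for the 8 largest rises and falls that passed for PBS against Sham with at least 1 CPM in the higher group, for 9 genes set by name, and for the 3 smallest p for rHCI against PBS; a few are given by range and median. Alternatives were other factors and filters, DESeq2 1.42.0, a minimum change of 1.2-fold, a covariate for the run, only the libraries of the shared run, all 15 libraries in 1 fit, and each replicate left out. Leaving out PBS 6 and rHCI 1 together was added after seeing the data.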

Additional observations from a re-analysis of the deposited data

Results flagged for a closer look

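In groups of 5 libraries, 1 library lay far from the other 4 in 10 of 141 sets of a gene and a group, where chance gives about 1 in 20. Cacna1c at 278.9 CPM, Cacna2d1 at 269.4 CPM and Ryr2 at 1756 CPM were highest in PBS 14, where the other PBS hearts reached at most 214, 226 and 1154 CPM, and Cacnb3 at 12.51 CPM was lowest there, beside at least 18.2 CPM in the others. PBS 14 also had the highest mean cardiomyocyte level of the PBS hearts, 11.741 on the log2 scale. Ryr1 at 3.102 CPM and Atp2a1 at 7.191 CPM stood out in PBS 6, with the skeletal muscle genes. Sln at 43.41 CPM stood out in rHCI 1. Cacna2d1 was low in Sham 17 at 171.9 CPM, Casq1 was low in Sham 20 at 10.55 CPM, and Scn3b was low in rHCI 7 at 1.531 CPM. Causes were not tested.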

How the results depend on the processing

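The number of members called lay between 31 and 40 for PBS against Sham and between 29 and 38 for rHCI against Sham over the alternatives run, lowest in both with a minimum change of 1.2-fold, and was 0 for rHCI against PBS under each. Leaving out 1 library gave 37 to 39, 34 to 38 and 0. Over the whole table, the 1.2-fold minimum left 6157 genes called for rHCI against Sham in place of 10268, and rHCI against PBS, with 0 genes called by edgeR, gave 6 by DESeq2 and 3 without rHCI 13. The split moved with scaling to the cardiomyocyte list, to 26 higher and 10 lower for PBS against Sham and 9 lower for rHCI against Sham, by construction of that scaling. The Scn4b correlation fell to 0.642 without the 2 farthest hearts. No paired analysis was possible because the groups share no replicate numbers.

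Signs turned as follows, as log2 fold changes, with rHCI against PBS given for the 12 members chosen for it by rule. Scaled to the cardiomyocyte list, PBS against Sham was 0.542 for Cacna1g, 0.171 for Cacna2d1, 0.178 for Hcn2, 0.499 for Itpr1, 0.246 for Slc8a1, 0.37 for Casq2, 0.112 for Asph, 0.228 for Camk2b, 0.114 for Camk2d, 0.25 for Camk2g and 0.44 for Mcu. On the same scale, rHCI against Sham was 0.177 for Cacna2d1, 0.068 for Hcn2, 0.385 for Itpr1, 0.142 for Slc8a1, 0.272 for Casq2, 0.069 for Asph, 0.151 for Camk2b, 0.075 for Camk2d, 0.158 for Camk2g and 0.32 for Mcu. For rHCI against PBS, where no member was called, 32 members were positive as reported and 13 on this scale. The 19 that turned reached at most -0.103, in Slc8a1, with Casq2 at -0.098 and Camk2d at -0.039. With library totals, PBS against Sham was 0.264 for Cacna1g, 0.217 for Itpr1, 0.089 for Casq2 and 0.15 for Mcu. rHCI against Sham was 0.147 for Itpr1, 0.046 for Casq2 and 0.093 for Mcu, and rHCI against PBS was -0.046 for Slc8a1 and -0.043 for Casq2. Atp2a1 turned to -1.071 with the run as a covariate and -1.063 in the shared run alone for PBS against Sham, both of which drop PBS 6 or give it its own term.

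The other turns among these were of values near 0, except for Atp2a1 when PBS 6 was left out. For PBS against Sham, Cacna1g was 0.008 with at least 1 CPM in 5 libraries and Atp2b1 was -0.001 by DESeq2. For rHCI against Sham, Cacna1g was -0.019 with RLE factors, -0.011 with every gene of at least 1 count, -0.007 both in the shared run alone and with all 15 libraries, and -0.023 by DESeq2. For rHCI against PBS, Slc8a1 was -0.002 with every gene of at least 1 count, -0.068 with the run as a covariate, -0.067 both in the shared run alone and without PBS 6 and rHCI 1, and -0.001 with all 15 libraries. In the same comparison Casq2 was -0.001 with every gene of at least 1 count, -0.009 with the run as a covariate, and -0.008 both in the shared run alone and without PBS 6 and rHCI 1. With 1 library left out, PBS against Sham ranged from -0.044 to 0.053 for Cacna1g, from -0.982 to 1.291 for Atp2a1 and from -0.016 to 0.035 for Atp2b1. rHCI against Sham ranged from -0.035 to 0.062 for Cacna1g and from -0.003 to 0.204 for Ryr1, and rHCI against PBS from -0.049 to 0.052 for Slc8a1 and from -0.032 to 0.054 for Casq2. The log2 ratio differences for PBS against Sham ranged from -0.013 to 0.023 for Pln to Atp2a2, from -0.088 to 0.031 for Ryr2 to Atp2a2 and from -0.064 to 0.195 for Ryr3 to Ryr2. Causes were not tested. Ryr1, Ryr3, Fkbp1b and Scn2b have at most 336 counts in any library, which limits their precision.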
